A study of Mus musculus with 6 samples.

Results

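Nipal1 and 9 other genes of magnesium transport were examined in the liver of mice without profilin 2, an actin-binding protein, and of wild-type mice. The genes were Nipal1, Nipal2, Nipal3, Nipal4, Nipa1, Nipa2, Cnnm2, Cnnm4, Trpm7 and Magt1. Each was taken by its symbol from the array rows annotated with exactly 1 gene, keeping the row with the highest mean over all arrays where a gene had several. All 10 symbols were found, each in 1 row, among 22180 genes tested. Nipal1 was chosen by its lower values in the Pfn2-/- arrays, so its difference between the genotypes is given as a description without a test. The other 9 were taken by name as relatives or as other magnesium transport genes.

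The study hybridised total liver RNA to 6 Affymetrix arrays, with 3 wild-type and 3 Pfn2-/- animals, all of strain C57BL/6 and untreated. In each genotype the animals were aged 9 (replicate 1), 8.5 (replicate 2) and 8 months (replicate 3), so each age holds 1 animal per genotype. The sex of the animals and the kind of Pfn2 allele were not stated in the labels used here. Values are RMA expression on the log2 scale. All differences are Pfn2-/- minus wild type, with the SE, the standard error from limma unless stated otherwise, and n = 3 arrays per group.

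Most magnesium in a cell is bound to ATP and nucleic acids, and its entry and exit depend on several unrelated protein families. NIPA and NIPA-like proteins are membrane proteins that carry magnesium and, for some members, other divalent cations. CNNM proteins take part in magnesium efflux. TRPM7 is a cation channel fused to a kinase, and MAGT1 is a subunit of the oligosaccharyltransferase that adds sugar chains to proteins and has also been described as a magnesium transporter. Magnesium uptake and loss of the whole body are set mainly in gut and kidney.

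Arrays correlated with each other at 0.981 to 0.990 within a genotype and at 0.981 to 0.987 between genotypes, over genes, which are not independent replicates. The 6 hepatocyte markers lay at 10.05 to 13.00 in all arrays, and the 4 measured kidney markers at 3.17 to 5.16. The targeted gene Pfn2 read 4.02, 3.85 and 4.09 in the wild-type arrays, against 3.88, 3.81 and 3.93 in the Pfn2-/- arrays (difference -0.11, SE 0.12). Its row was dim in both groups and cannot check the genotype labels. For scale, the median of all gene means was 4.72 and their lower quartile was 3.80. Rows carry different probes, so the level of a gene is not set against that of another.

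The promoters of Nipal1 and Nipa2 are shown because these genes had the lowest differences of the set, of very unequal size. The letters are the 250 bases before the annotated start, from RefSeq (GRCm38.p6). The Nipal1 window lies at chr5:72647546-72647795 on the plus strand and that of Nipa2 at chr7:55962494-55962743 on the minus strand. Both are written 5′ to 3′ in the direction of the gene. Capitals mark matches on either strand to GGGCGG (the GC box), CCAAT or CACGTG (a form of the E-box). Other forms of the E-box were not searched.
Nipal1: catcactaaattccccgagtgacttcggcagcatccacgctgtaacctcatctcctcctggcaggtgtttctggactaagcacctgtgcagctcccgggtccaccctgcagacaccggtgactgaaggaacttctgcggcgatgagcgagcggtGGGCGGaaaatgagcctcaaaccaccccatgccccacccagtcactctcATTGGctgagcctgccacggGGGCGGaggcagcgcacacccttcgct
Nipa2: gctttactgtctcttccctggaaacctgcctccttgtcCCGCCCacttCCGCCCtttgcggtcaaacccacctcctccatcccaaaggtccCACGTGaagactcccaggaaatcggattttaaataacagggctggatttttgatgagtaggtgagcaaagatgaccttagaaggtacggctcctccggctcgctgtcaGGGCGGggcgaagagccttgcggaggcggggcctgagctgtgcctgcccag

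The Nipal1 window held 2 matches to GGGCGG and 1 to CCAAT, and the Nipa2 window 3 to GGGCGG and 1 to CACGTG. Of all 32851 promoter windows of this length, 32.7% held GGGCGG, 33.8% CCAAT and 6.02% CACGTG. Promoters were matched for 9 of the 10 genes, all but Nipal2. Of these 9 genes, 7 held GGGCGG, 4 held CCAAT, 3 held CACGTG (Nipa2, Trpm7 and Magt1) and 1, Cnnm4, held TGACGTCA, the cAMP response element, which is in 1.55% of all windows. TTCNNNGAA, the letters bound by STAT factors, and AGAACA, a glucocorticoid receptor half-site, matched in 0 of the 9, against 7.02% and 16.1% of all windows. All the windows were rich in G and C, at 56.4% to 75.6% against a median of 52.4% over all promoters, and Nipal1 at 61.2% lay within that range. These letter matches are a description and say nothing of binding.

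Nipal1, a NIPA-like magnesium transporter known from the kidney tubule, read 7.72, 7.95 and 6.40 in the wild-type arrays, against 4.17, 5.66 and 4.18 in the Pfn2-/- arrays. The groups did not overlap, as in 4.76% of all genes in that direction, with 0.74 between the lowest wild-type array, replicate 3, and the highest Pfn2-/- array, replicate 2. Means were 7.36 ± 0.84 (SD, n = 3) and 4.67 ± 0.86 (SD, n = 3), a difference of -2.69 (SE 0.46), or 6.44-fold lower. In 2 Pfn2-/- arrays the row was below the median of all gene means, so the size of the fold is not exact. Of 22180 genes, 4 had a larger absolute difference. This gap chose the gene, and nothing is read from its rank.

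Within each genotype Nipal1 also varied more than most genes. Its SD within genotypes was 0.85, at percentile 99.8 of all genes, where the median gene had 0.17. In wild type, replicates 1 and 2 lay within 0.23 of each other and replicate 3 lay well below them. In Pfn2-/- liver, replicates 1 and 3 were nearly equal and replicate 2 stood above them. Leaving out each array in turn gave differences of -3.18 to -2.39.

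**Figure D1:**
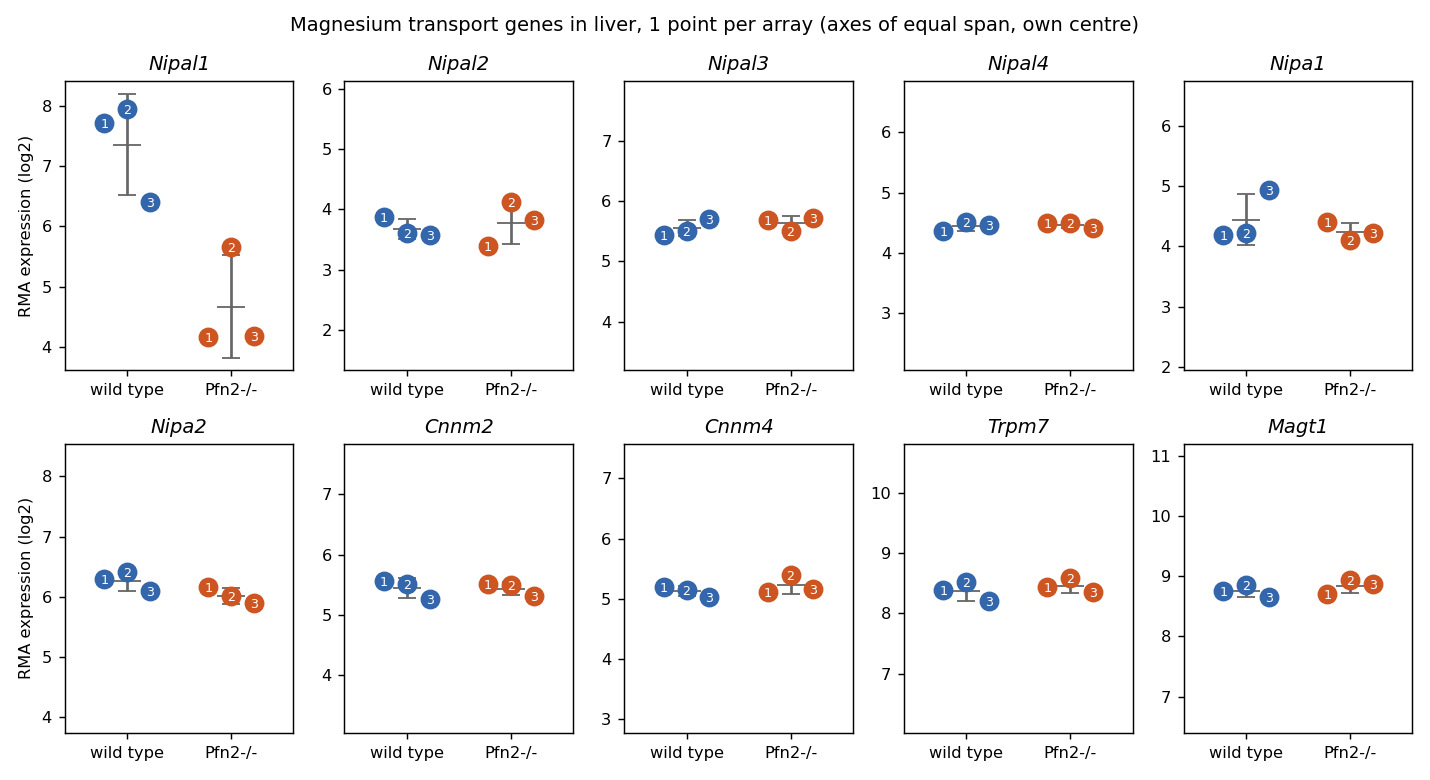
RMA expression (log2) of the 10 genes in wild-type (blue) and Pfn2-/- (orange) liver, 1 numbered point per array, with the mean and SD of each group in grey. Every panel spans the same number of log2 units around its own centre; Nipal1 separates by 0.74, and the groups of the other 9 genes overlap.

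The 3 namesakes of Nipal1 differed by 0.02 to 0.10 between the genotypes. Nipal2 read 3.87, 3.60 and 3.57 in the wild-type arrays, against 3.40, 4.12 and 3.82 in the Pfn2-/- arrays, a difference of 0.10 (SE 0.18). Its row was dim in every array, where a fall could hardly show, and its groups overlapped. Nipal3, a little-studied relative, read 5.44, 5.51 and 5.70 in the wild-type arrays, against 5.69, 5.50 and 5.71 in the Pfn2-/- arrays, a difference of 0.08 (SE 0.13). Its values spanned 0.27 over all 6 arrays, and the groups overlapped. Nipal4, mutated in a human ichthyosis and known from skin, lay at 4.36, 4.51 and 4.46 against 4.49, 4.49 and 4.41, a difference of 0.02 (SE 0.12). Its 6 arrays spanned 0.15, and its row lay below the median of gene means throughout.

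Nipa2 had the most negative difference of the remaining genes. Nipa2, a magnesium transporter of the cell surface and early endosomes, read 6.29, 6.41 and 6.09 in the wild-type arrays, against 6.16, 6.01 and 5.89 in the Pfn2-/- arrays. The highest Pfn2-/- array, replicate 1, lay above the lowest wild-type array, replicate 3, so the groups overlapped. The difference was -0.24 (SE 0.14, 95% confidence interval -0.55 to 0.06, limma adjusted p = 0.952). Without wild-type replicate 3 it was -0.33, with an unadjusted limma p of 0.0481 (adjusted p = 0.706).

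Nipa1, an endosomal magnesium transporter mutated in a hereditary spastic paraplegia, read 4.18, 4.22 and 4.93 in the wild-type arrays, against 4.40, 4.11 and 4.22 in the Pfn2-/- arrays. Its difference of -0.20 (SE 0.20) came from wild-type replicate 3, the array in which Nipal1 was lowest in wild type, and was 0.043 without that array. Nipa1 and Nipa2 lie 2 tested genes apart on the same chromosome.

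Cnnm2, whose human gene is mutated in dominant hypomagnesemia, read 5.56, 5.52 and 5.26 in the wild-type arrays, against 5.51, 5.49 and 5.31 in the Pfn2-/- arrays. Its difference of -0.01 (SE 0.13) was close to 0, and its sign turned under other settings. Cnnm4, which exports magnesium across the basolateral side of epithelia, lay at 5.19, 5.15 and 5.03 against 5.11, 5.39 and 5.17, a difference of 0.10 (SE 0.13). In both genes each Pfn2-/- array but replicate 2 of Cnnm4 lay within the wild-type range.

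The rows of Trpm7 and Magt1 were bright in both groups, at percentiles 94.5 and 96.0 of all gene means. Trpm7 read 8.39, 8.52 and 8.20 in the wild-type arrays, against 8.44, 8.59 and 8.36 in the Pfn2-/- arrays, a difference of 0.09 (SE 0.13, 95% confidence interval -0.20 to 0.39). Magt1 lay at 8.76, 8.85 and 8.65 against 8.71, 8.94 and 8.87, a difference of 0.09 (SE 0.12, 95% confidence interval -0.19 to 0.36). In both genes the groups overlapped, and the 6 arrays spanned 0.39 and 0.29.

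Of the 9 genes other than Nipal1, 3 had a negative and 6 a positive difference, and none passed the test. In the limma fit 0 of 9 had an unadjusted p under 0.05, against 5.29% of all genes, and the smallest was 0.103 for Nipa2. With Benjamini-Hochberg adjustment over all genes, 0 of the 10 genes passed 0.05, and 0% of all genes did. The groups of 0 of the 9 were free of overlap, against 9.85% of all genes. At these shares, counts of 0 among 9 genes are no result about them. Differences ran from -0.24 to 0.10 with a median absolute difference of 0.09, where all genes had 0.11. The lowest lower bound of their 95% confidence intervals was -0.64, for Nipa1. The rows of Nipal2, Nipal4 and Nipa1 lay below the median of gene means, where a fall is compressed. Smaller differences within those intervals were not detectable with 3 arrays per group.

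**Figure D2:**
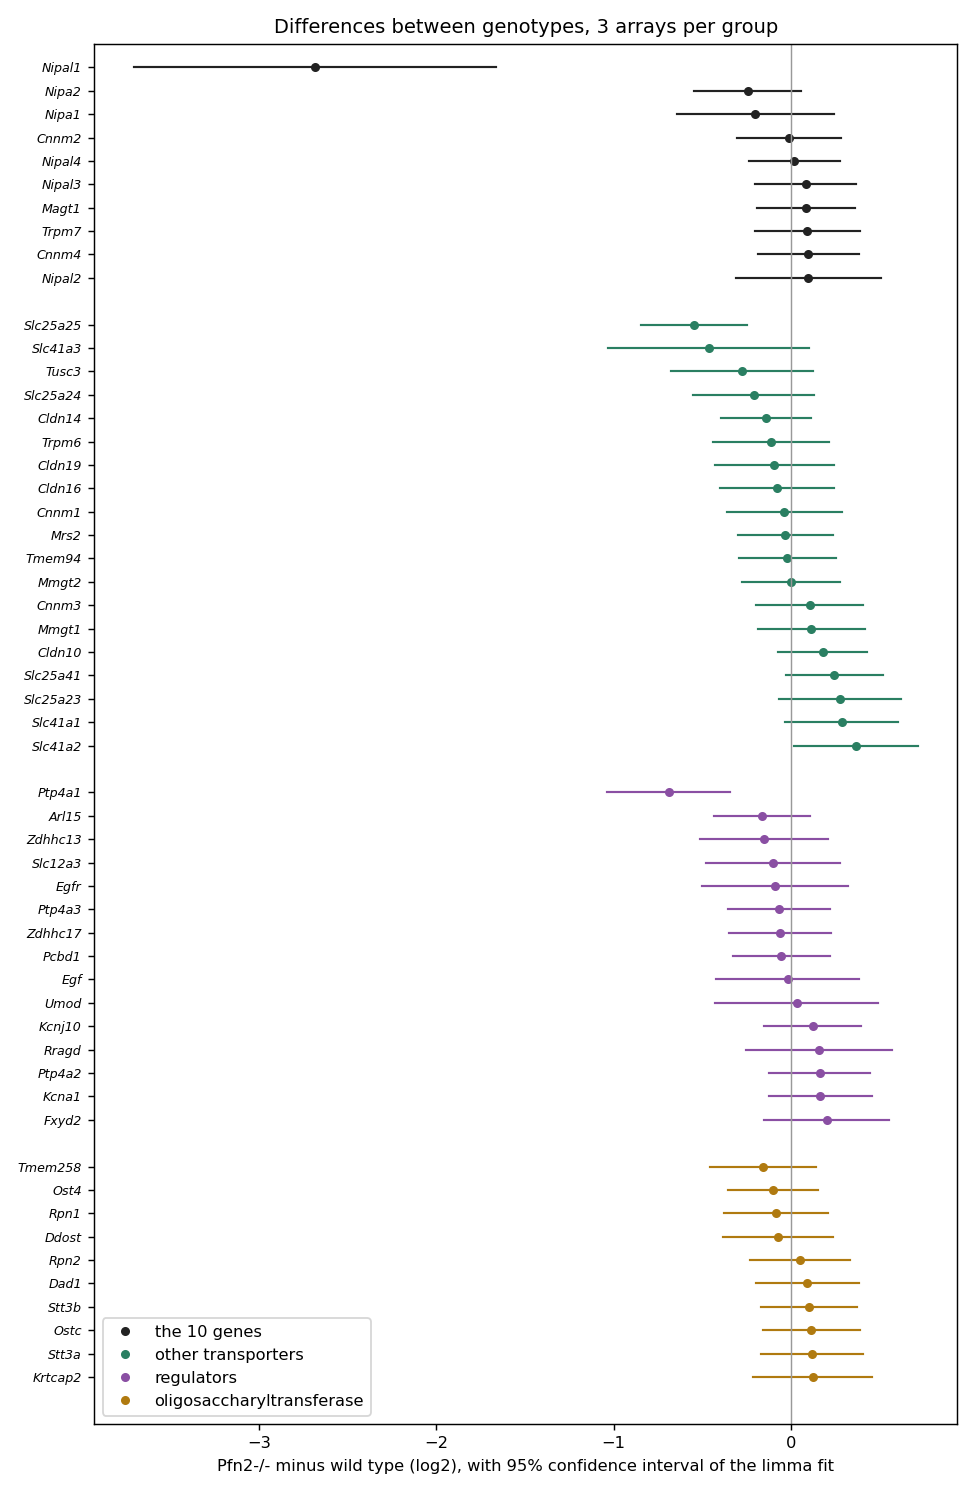
Difference between Pfn2-/- and wild-type liver (log2) with its 95% confidence interval from the limma fit, for the 10 genes and, in further blocks, other magnesium transporters, regulators and oligosaccharyltransferase subunits. Nipal1 lies at -2.69; the other 9 lie between -0.24 and 0.10 with intervals across 0, and Ptp4a1 at -0.69 is the lowest of the further genes.

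The change of Nipal1 was also set against that of the others within each array. The mean of the other 9 genes, each centred on its own average, ran from -0.04 to 0.06 over the 6 arrays. Averaging narrows this span, since the single genes spanned 0.15 to 0.82. Nipal1, a single gene centred on its own average, read 1.71, 1.94 and 0.39 in the wild-type arrays, against -1.84, -0.35 and -1.83 in the Pfn2-/- arrays. The SE and intervals that follow come from an ordinary linear model and not from limma. The difference of Nipal1 minus the mean difference of the others was -2.69 (SE 0.66, 95% confidence interval -4.53 to -0.85, 4 residual degrees of freedom). Against single genes it ran from -2.79, for Nipal2 and Cnnm4, to -2.44 for Nipa2. The 95% confidence interval against Nipa1 alone reached positive values, at -5.03 to 0.06 around -2.49. No test is attached to these values, since Nipal1 entered through its difference. That choice favours intervals far from 0, so which of them reach 0 is no result. Whether the fall is particular to Nipal1 was therefore not tested.

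Spread within genotypes differed widely among the 10. It was not a criterion of the choice, but choosing Nipal1 by a wide difference favours a gene of wide spread. Nipal4 had an SD of 0.06 and lay at percentile 3.51 of all genes, and Magt1, Cnnm4, Nipal3, Cnnm2, Trpm7 and Nipa2 lay between percentiles 18.0 and 38.0. Nipal2 and Nipa1 were more variable, at percentiles 86.1 and 90.6, and Nipal1 exceeded them all.

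**Figure D3:**
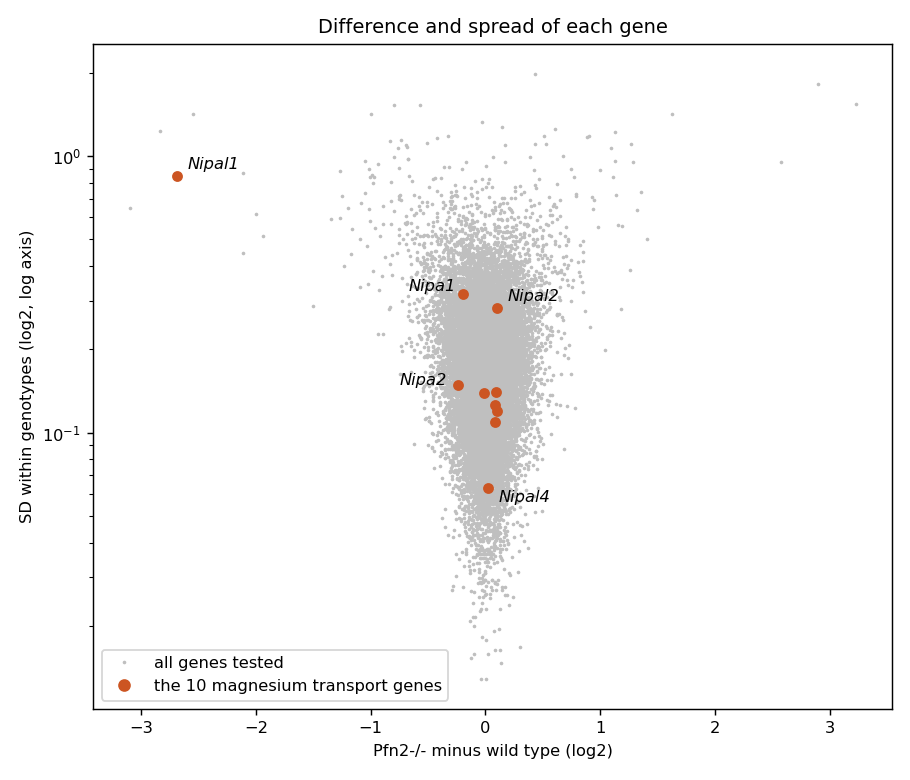
Difference between the genotypes (log2, horizontal) and SD within genotypes (log2, vertical log axis) for 22180 genes in grey and the 10 magnesium transport genes in orange. Nipal1 has both a wide difference (-2.69) and a high SD (0.85); the other 9 lie within the main cloud.

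The wider set of magnesium genes held 19 other transporters, channels, claudins and ATP-magnesium carriers and 16 regulators, of which 34 of 35 were measured. None passed the limma test adjusted over all genes (smallest adjusted p = 0.712). At an unadjusted p under 0.05 there were 3 of 34, or 8.82%, against 5.29% of all genes. Of these, Ptp4a1 and Slc25a25 were lower and Slc41a2 was higher, where 2.62% of all genes were called lower and 2.67% higher. Without Pfn2-/- replicate 2 there were 5. The median difference was -0.03 and the median absolute difference 0.13, beside 0 and 0.11 over all genes. Groups did not overlap in 5 of 34, against 9.85% of all genes.

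Ptp4a1, which encodes a phosphatase that binds CNNM proteins and restrains their magnesium efflux, read 8.24, 8.15 and 7.92 in the wild-type arrays, against 7.21, 7.69 and 7.34 in the Pfn2-/- arrays. Its groups did not overlap, and the difference was -0.69 (SE 0.16, limma adjusted p = 0.712). Its relatives Ptp4a2 and Ptp4a3 differed by 0.16 (SE 0.13) and -0.07 (SE 0.13). Like Nipal1, Ptp4a1 was lowest among wild-type arrays in replicate 3 and highest among Pfn2-/- arrays in replicate 2. Trpm7, Magt1 and Cnnm4, which hardly differed between the genotypes, had the same order, so it is not particular to Ptp4a1.

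Slc25a25, a mitochondrial carrier that exchanges ATP-magnesium for phosphate, read 7.75, 7.80 and 7.44 in the wild-type arrays, against 7.05, 7.12 and 7.18 in the Pfn2-/- arrays. The groups did not overlap, and the difference was -0.55 (SE 0.13, limma adjusted p = 0.73). Its paralog Slc25a23 differed by 0.28 (SE 0.15) and Slc25a24 by -0.21 (SE 0.15). Both Ptp4a1 and Slc25a25 kept an unadjusted p under 0.05 in 18 of 18 alternative fits. These genes were named by their values in the main fit, and the alternatives reuse the same arrays. The count is therefore no independent support.

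Slc41a2, of the SLC41 magnesium transporters, read 6.70, 6.62 and 6.79 in the wild-type arrays, against 7.14, 6.76 and 7.32 in the Pfn2-/- arrays. Replicate 2 of Pfn2-/- fell inside the wild-type range, and the difference was 0.37 (SE 0.16, limma adjusted p = 0.92). Its unadjusted p stayed under 0.05 in 14 of 18 alternative fits, a count with the same limit. Slc41a1 and Slc41a3 differed by 0.29 (SE 0.14) and -0.46 (SE 0.25). Mrs2, the channel of the inner mitochondrial membrane, differed by -0.03 (SE 0.12), Cnnm3 by 0.11 (SE 0.14) and Trpm6, the epithelial relative of Trpm7, by -0.11 (SE 0.15). Egfr, the receptor through which EGF stimulates TRPM6, differed by -0.09 (SE 0.18).

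Magt1 belongs to the oligosaccharyltransferase, and no gene of that complex passed the test. Of 11 measured subunit genes 0 had an unadjusted limma p under 0.05, against 5.29% of all genes, a share at which a count of 0 is no result about the complex. Differences ran from -0.28, for the Magt1 paralog Tusc3, to 0.12, with a median absolute difference of 0.10, beside 0.11 over all genes. Stt3b, the catalytic subunit that works with Magt1, read 8.81, 8.94 and 8.73 in the wild-type arrays, against 8.85, 8.91 and 9.03 in the Pfn2-/- arrays, a difference of 0.10 (SE 0.12). The small subunit gene Ost4 differed by -0.10 (SE 0.11).

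Genes beside Nipal1 on the chromosome differed by -0.24 to 0.14, over the nearest 5 tested genes on each side, with 8 lower and 2 higher in Pfn2-/-. Of these 10 genes 0 had an unadjusted limma p under 0.05, against 5.29% of all genes, so the count is no result about them. Cnga1 and Txk, its direct neighbours on either side, differed by -0.13 (SE 0.12) and -0.24 (SE 0.13).

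The genes whose array pattern was most like that of Nipal1 were sought among variable genes. Likeness was Pearson's r over the 6 arrays among 294 genes with an SD of at least 0.5 and a mean at or above the median of all gene means. That filter let in 0 of the other 9 magnesium transport genes and 0 of the 34 on the wider list, so none of them could be named here. These points share the genotype contrast that chose Nipal1, so r is a description. Lepr, the leptin receptor gene, was closest (r = 0.994), followed by Cyp17a1, a steroid hydroxylase gene (0.979), Cers6, a ceramide synthase gene (0.979), and Slc16a5, of the monocarboxylate transporter family (0.975). Btg2, Abcd2, Nrg4 and Jchain followed at 0.949 to 0.962. The lowest r belonged to Nrp1 (-0.954), Mup-ps12 (-0.949), Adh6-ps1 (-0.945) and Cyp2d9 (-0.934).

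Lepr read 6.45, 6.77 and 5.74 in the wild-type arrays, against 3.99, 4.94 and 4.21 in the Pfn2-/- arrays. As in Nipal1, wild-type replicate 3 was the lowest of its group and Pfn2-/- replicate 2 the highest of its own. When each array was taken as its deviation from its genotype mean, r with Nipal1 was 0.980 for Lepr and 0.889 to 0.974 for the other 7 most similar genes. By the same measure Trpm7, Cnnm4 and Magt1 reached 0.938, 0.930 and 0.831 and Nipal3 lay at -0.952, all with far smaller deviations, so such values are not particular to the 8 genes. Of the magnesium genes chosen with Nipal1, Nipa2 had the highest r over the 6 arrays, at 0.787, and Nipal3 the lowest, at -0.739, while these genes differed between genotypes by -0.24 and 0.08.

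**Figure D4:**
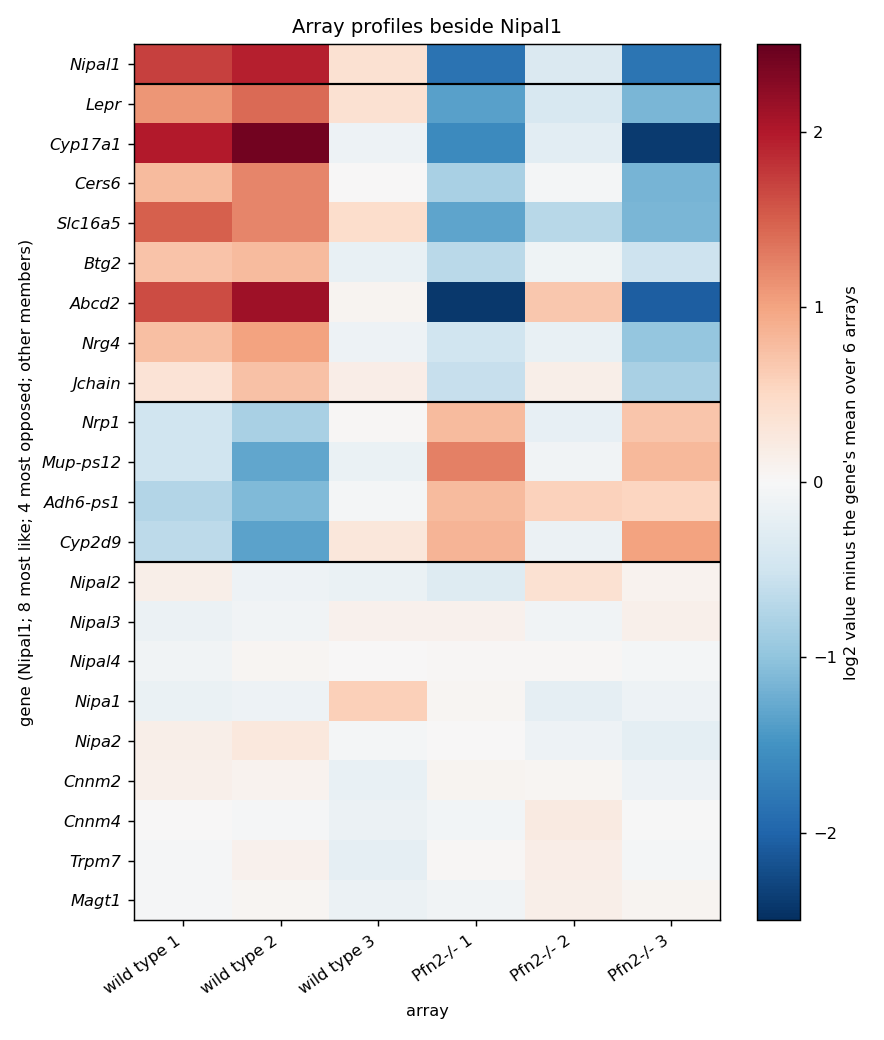
Log2 value of each gene in each array minus its mean over the 6 arrays (colour), for Nipal1, the 8 genes most like it, the 4 most opposed and the other 9 magnesium transport genes. The first block repeats the Nipal1 pattern, with wild-type replicate 3 and Pfn2-/- replicate 2 nearest to 0 in Nipal1, and the last block is pale, with little change in any array.

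Gene lists of fasting and of sex-biased expression are given as values beside Nipal1, with no test of a relation. These lists, chosen with earlier results known, are no independent evidence of a direction. Of 16 measured genes, from a list of 19, known to be induced by fasting or glucocorticoids, 16 were lower and 0 higher in Pfn2-/-, with a median difference of -0.38, beside 0 over all genes. Their centred mean was 0.52, 0.49 and 0.12 in wild type and -0.66, -0.45 and -0.03 in Pfn2-/-. Igfbp1, Lpin1 and Lepr had the widest differences, with Igfbp1 at -2.11 (SE 0.47) and Lepr at -1.94 (SE 0.29). The narrowest were those of Tsc22d3, at -0.10 (SE 0.31), and Fgf21, at -0.10 (SE 0.21). Lepr was also named above by its r with Nipal1. Pfn2-/- replicate 3, in which Nipal1 was at its low level, had the highest list mean of its group.

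Of 11 measured genes with higher expression in male liver 11 were higher in Pfn2-/-, with a median difference of 1.14. Of 16 measured genes with higher expression in female liver 8 were lower and 8 higher, with a median of 0.00. Only 8 of these 16 had a mean at or above the median of gene means, against 11 of 11 male genes. A fall in the dimmer rows could hardly show, so the even split does not describe the expressed genes. Among the 8 brighter rows Cyp17a1, Abcd2, Acot3, Fmo2, Cux2 and Tox were lower, and Cyp3a44 and Ntrk2 higher. The centred means were -0.25, -1.05 and -0.53 in wild type against 0.85, 0.23 and 0.74 for the male list, and 0.31, 0.44 and -0.08 against -0.29, -0.02 and -0.37 for the female list. In the Pfn2-/- arrays, replicate 2 had the lowest male and the highest female mean and also the highest Nipal1. Cyp17a1 and Abcd2 of the female list and Cyp2d9 of the male list were named above by their r with Nipal1. That match is therefore partly built in. In wild type the female mean was lowest in replicate 3, as was Nipal1, while the male mean was highest in replicate 1. The part of these lists in the Nipal1 difference was not tested.

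Markers of other liver cells were measured in the same arrays. The 5 endothelial markers had summed levels of 10.67, 10.76 and 10.35 in wild type and of 10.32, 10.50 and 10.23 in Pfn2-/-, and 4 of 5 had lower means in Pfn2-/-, with Lyve1 at -0.74 (SE 0.61). As for Nipal1, wild-type replicate 3 was the lowest and Pfn2-/- replicate 2 the highest of its group, but Lyve1 alone carried this. Without Lyve1 the sums were 10.10, 10.14 and 10.22 in the wild-type arrays, against 10.19, 10.11 and 9.95 in the Pfn2-/- arrays. The part of such cells in the result was not tested. Fewer cells of a type and less RNA per cell cannot be told apart in whole tissue. The 4 measured cholangiocyte markers, 3 of them with higher means in Pfn2-/-, had summed levels of 7.01 to 7.32 in wild type and 7.38 to 7.67 in Pfn2-/-, which rested on Sox9, at 0.58 (SE 0.20), while Krt19, Krt7 and Epcam differed by 0.05, 0.02 and -0.10. Summed levels of macrophage markers were 9.70 to 10.53 and 9.95 to 9.98, of stellate markers 9.27 to 9.33 and 9.25 to 9.36, and of lymphocyte markers 6.77 to 7.47 and 6.86 to 7.03. The summed level of the 6 hepatocyte markers was 14.56 to 14.66 in wild type and 14.54 to 14.58 in Pfn2-/-.

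**Figure D5:**
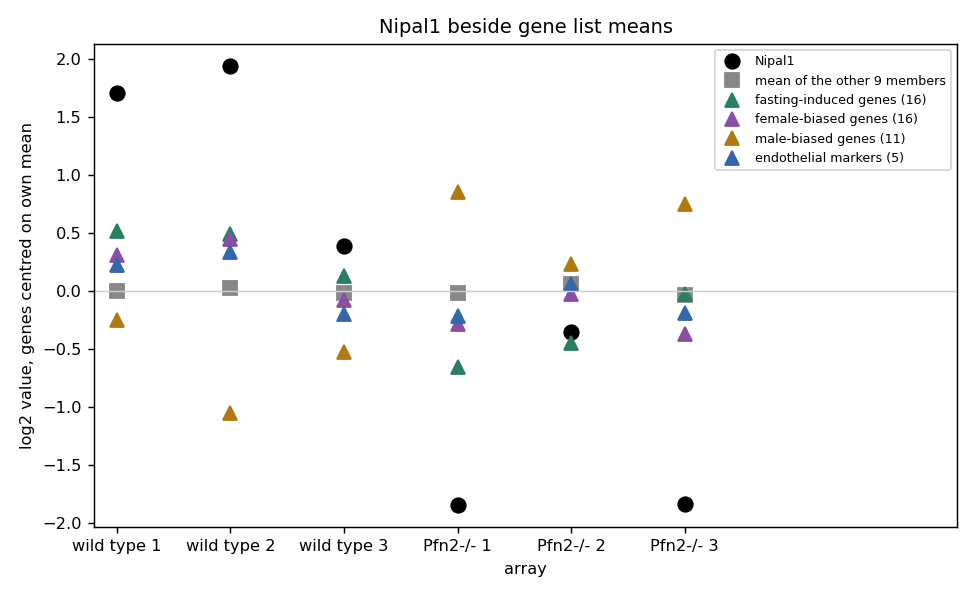
Centred log2 values per array for Nipal1 (black), the mean of the other 9 magnesium transport genes (grey squares) and the means of fasting-induced, female-biased, male-biased and endothelial genes (triangles). Nipal1 runs from 1.94 to -1.84, the mean of the other 9 genes stays between -0.04 and 0.06, and the list means lie between -1.05 and 0.85.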

How the data were processed

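The authors deposited log2 expression values of 6 arrays, 1 per row and array. RMA and limma are named in the submitters' processing notes, while versions and the level of summarisation were not given in the sources used. RMA corrects background and quantile normalizes the arrays, which removes shifts common to all genes and compresses differences of dim rows. Arrays carry no read depth, so precision is limited by their number.

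Of 34390 rows 23521 had exactly 1 symbol in the platform annotation, which can be old, and the row with the highest mean was kept per gene. The comparison of genotypes used limma 3.58.1 under R 4.3.3 (lmFit and eBayes, genotype as the sole term, two-sided), with Benjamini-Hochberg adjustment over all 22180 genes. The fit was tested on simulated data. The members, gene lists and tests were chosen with earlier results of these data known.

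Named were the 10 genes, magnesium and oligosaccharyltransferase genes at an unadjusted p under 0.05 or an absolute difference of 0.5 or more, the row of highest signal in each group, the 8 most and 4 least similar to Nipal1, and up to 4 genes per context list. Close relatives of named genes and direct neighbours were added after their values were seen. Same-numbered arrays share an age. Motifs were searched on both strands. The erythroid markers were not analysed here. Alternatives covered normalization, filters, rows per gene, eBayes settings, array weights, the replicate number, age and each array left out.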

Additional observations from a re-analysis of the deposited data

How the results depend on the processing

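The Nipal1 difference kept its sign in 18 of 18 alternatives, at -2.94 to -2.65 under other settings and -3.18 to -2.39 without single arrays. Minus the mean difference of the other members it was -2.94 to -2.66 and, without single arrays, -3.16 to -2.41. With the replicate number as a block, 1 member (Nipal1) and 7 of all genes passed the adjusted threshold in limma, against 0 and 0 without it. Nipal1 was chosen by its difference, so this is a count and no test of it. Same-numbered arrays, which share an age, correlated at -0.08, 0.15 and 0.02 over genes in their deviations from genotype means. With 3 arrays per group these values cannot decide whether the numbers pair the samples. With array weights 2 of all genes passed and 6 magnesium list genes had an unadjusted p under 0.05. Without single arrays 0 to 6 of all genes passed, with 6 without wild-type replicate 3, while 0 members did. Members at an unadjusted p under 0.05 numbered 1 to 2, members other than Nipal1 0 to 1 and magnesium list genes 2 to 5. Magnesium list genes past the adjusted threshold were 0 throughout. Among members near 0 the sign turned for Cnnm2 with quantile normalization again (0.019) and cyclic loess (0.017) and for Nipal2 with array weights (-0.022). Without single arrays Cnnm2 ran from -0.10 to 0.053, Nipal2 from -0.07 to 0.29, Nipal4 from -0.022 to 0.053 and Nipa1 from -0.33 to 0.043. The cause of these changes was not tested. The filter at the lower quartile left out Nipal2, and that at the median also Nipal4 and Nipa1.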
